A study of Mus musculus with 12 samples.

Results

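Oligodendrocyte precursor cells (OPC) are the dividing glial cells that give rise to myelinating oligodendrocytes, and 770 of the 24213 cells kept from the mouse dentate gyrus at postnatal day 7 (P7) met the rule for them. A cell was counted as an OPC when it held at least 1 UMI (unique molecular identifier, 1 captured transcript) of *Pdgfra* or *Sox10*, at least 1 UMI of 3 or more of the 8 markers *Pdgfra*, *Sox10*, *Cspg4*, *Lhfpl3*, *Gpr17*, *C1ql1*, *Matn4* and *Nxph1*, and no UMI of *Eomes*, which marks neuronal intermediate progenitors. The study deleted *Larp7*, a subunit of the 7SK small nuclear ribonucleoprotein, from neural progenitors and read dentate gyrus cells by droplet single-cell RNA sequencing. There was 1 library of each genotype, each made from 3 to 4 gyri of littermates combined. The wild-type library came from mice with floxed *Larp7* alleles and no Cre. The library titled P7_L7_Nestin stands for *Larp7* f/f;nestin-Cre, in which a transgene with the nestin promoter and enhancer drives Cre in neural progenitors and their descendants, and P7_L7_Emx1 for *Larp7* f/f;Emx1-Cre, in which Cre is expressed from the *Emx1* locus in the dorsal telencephalic lineage. The genotype entries of these mutant libraries name the opposite Cre drivers from their titles. The titles were followed throughout, so every value called nestin-Cre or Emx1-Cre belongs to the library of that title. All 3 groups carried floxed alleles and were of the same age.

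OPC divide in response to platelet-derived growth factor, which they sense with the receptor PDGFRA. The transcription factors OLIG1, OLIG2 and SOX10 hold the lineage, and cells that leave the cycle take up GPR17, BMP4 and then the myelin proteins. OPC of the forebrain come first from ventral and later from dorsal, *Emx1*-expressing, progenitors. LARP7 stabilizes the 7SK RNA, which together with HEXIM1 holds the kinase P-TEFb (CDK9 with cyclin T) inactive, so that loss of LARP7 frees the kinase that releases paused RNA polymerase II.

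The loxP sites flank exon 9 of *Larp7*, which Cre removes. The study does not state the transcript it numbered by, so the exon shown here is the 9th by RefSeq numbering. In RefSeq transcript NM_138593.2 on GRCm38.p6 it is a 125-base internal exon on the minus strand at chr3:127544154-127544278, the 9th of 13 exons. Its length leaves a remainder of 2 when divided by 3, and 698 spliced bases lie downstream of it.
Larp7 exon 9: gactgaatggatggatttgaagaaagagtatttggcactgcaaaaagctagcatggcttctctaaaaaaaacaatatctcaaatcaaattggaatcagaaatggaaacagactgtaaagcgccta
The libraries count reads from the 3′ end of transcripts, which need not cover this exon, so a *Larp7* UMI count reads the level of the transcript and not the deletion.

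The deposited matrices held 12876 barcodes for wild-type, 7177 for nestin-Cre and 6821 for Emx1-Cre, of which 10997, 6685 and 6531 passed the filter (over 500 genes detected, mitochondrial share of UMIs under 15%). Median UMIs per kept cell were 1782 in wild-type against 3644 and 3873 in the mutant libraries. Reads of a gene in cells that should lack it also differed. The glial phosphatase gene *Ptprz1* had a UMI in 48.1% of 832 wild-type, 16.5% of 497 nestin-Cre and 20.5% of 259 Emx1-Cre microglia. Their median depths were 1754.5, 3217 and 3230 UMIs, and microglial markers summed to 117, 165 and 166 UMIs per 10000 in them. Whether such reads came from RNA free in the suspension, doublets or other cells picked as microglia was not tested. Between 11 and 23 barcodes were shared by any pair of libraries and 0 of these were OPC. With 1 library per genotype no test between genotypes was possible. Values between genotypes are given with 95% intervals that cover counting error only, and differences between animals, library and genotype cannot be told apart.

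The targeted gene read lower in OPC of both mutant libraries, with a ratio away from 0 in 1 of them. *Larp7* stood at 36.7 counts per 1000000 UMIs (CPM) in wild-type OPC (exact Poisson interval 22.1 to 57.3), 12.9 in nestin-Cre (6.64 to 22.5) and 20.8 in Emx1-Cre (12.9 to 31.8), from 19, 12 and 21 UMIs. The log2 ratio to wild-type was -1.51 (-2.69 to -0.40) in nestin-Cre, while that of Emx1-Cre, -0.82 (-1.79 to 0.16), could not be told from 0 at this depth. In the other neural classes, which like the OPC were picked by marker genes, both ratios lay away from 0. They were -2.99 and -2.75 in progenitors with *Egfr* and *Olig2* but no *Pdgfra* or *Sox10* (Egfr Olig2 progenitors), -2.49 and -2.03 in astrocytes and -2.88 and -2.21 in neuronal intermediate progenitors, which hold *Eomes*. Microglia, which neither driver should reach, gave -0.72 (-1.21 to -0.25) and -0.51 (-1.09 to 0.03). The ratio of OPC in Emx1-Cre thus lay between those of microglia and of dorsal neural classes, and whether it differs from either was not tested.

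*Hexim1*, the inhibitor of P-TEFb, read higher in the OPC of both mutant libraries, with an interval that reached 0 in Emx1-Cre. It stood at 36.7 (22.1 to 57.3) CPM in wild-type, 66.4 (50.9 to 85.2) in nestin-Cre and 59.4 (45.3 to 76.5) in Emx1-Cre, log2 ratios of 0.86 (0.09 to 1.68) and 0.69 (-0.07 to 1.52). The other classes gave values on the same side, with 1.03 and 0.81 in Egfr Olig2 progenitors, 1.01 and 0.70 in astrocytes, 1.28 and 1.14 in neuronal intermediate progenitors and 1.01 and 0.63 in microglia. *Ccnt1*, the cyclin T1 subunit of P-TEFb, stood at 46.4, 90.0 and 68.3 in OPC, log2 ratios of 0.96 (0.29 to 1.68) and 0.56 (-0.13 to 1.29). *Mepce*, the capping enzyme of 7SK, stood at 17.4, 30.0 and 28.7, the kinase gene *Cdk9* at 32.8, 34.3 and 21.8 and *Ccnt2* at 61.8, 57.9 and 63.4. Summed over the list the log2 ratios were 0.34 (0.03 to 0.66) and 0.21 (-0.10 to 0.53).

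**Figure D1:**
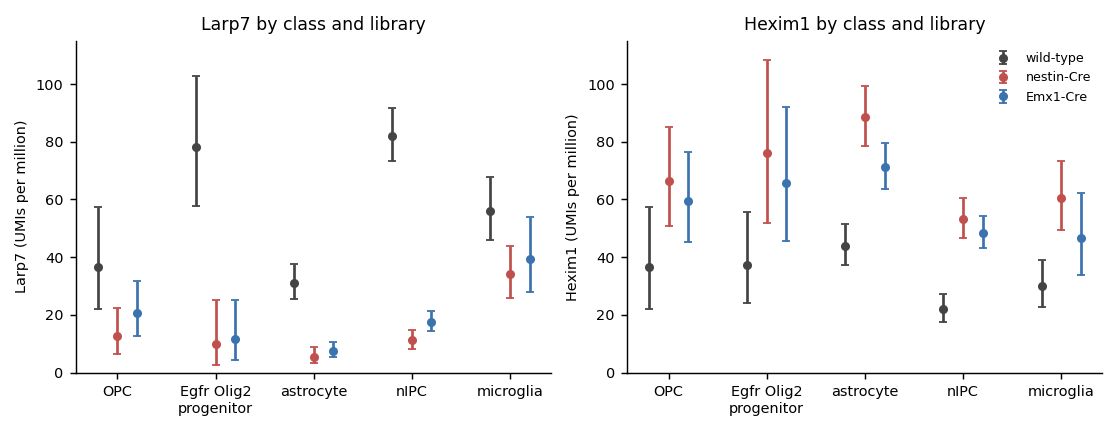
*Larp7* and *Hexim1* in CPM by cell class and library, with exact Poisson 95% intervals. *Larp7* of wild-type OPC, 36.7, lies above 12.9 and 20.8 in the mutant OPC, and *Hexim1* of wild-type lies lowest in each class shown.

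OPC were the smaller share of the wild-type library. The rule took 205 cells in wild-type, 1.86% (exact binomial interval 1.62 to 2.13), 272 in nestin-Cre, 4.07% (3.61 to 4.57), and 293 in Emx1-Cre, 4.49% (4.00 to 5.02). A deeper library passes a marker rule more readily, so each cell was also thinned to 1500 UMIs before the rule was applied, with shallower cells left out. The shares were then 2.04%, 3.17% and 3.69%, in the same order and closer together. The cells counted fell from 10997 to 6212 in wild-type, from 6685 to 6088 in nestin-Cre and from 6531 to 6092 in Emx1-Cre. How far this unequal loss of shallow cells moved the shares was not tested. OPC held a median of 2429, 3097 and 2807 UMIs and 1483, 1816.5 and 1684 genes in wild-type, nestin-Cre and Emx1-Cre. At 1500 UMIs per cell the median numbers of genes were 1029, 1042 and 1043.5, closer together than without thinning. A share can change through OPC or through any of the other cells captured.

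*Olig1* and *Olig2*, basic helix-loop-helix factors of the oligodendrocyte lineage that the rule did not use, were present in most members. *Olig1* had a UMI in 92.2% of wild-type, 96.7% of nestin-Cre and 98.6% of Emx1-Cre OPC, against 15.3%, 4.23% and 7.34% of microglia. *Olig2* was read in 77.1%, 73.2% and 84.0% of OPC and in 6.85%, 0.805% and 1.93% of microglia. These 2 genes thus set the members apart from microglia. They do not by themselves set them apart from the Egfr Olig2 progenitors, which were chosen by *Olig2* and also held *Olig1*, at lower levels given below. Cells with *Pdgfra* or *Sox10* but only 2 of the 8 markers, just outside, numbered 79, 25 and 19 and carried 734, 925 and 838 CPM of *Olig1*. Members with 3 markers, just inside, numbered 45, 33 and 26 and carried 1477, 1073 and 1760 CPM. The next cells outside the rule thus also held the transcript, at lower levels in all 3 libraries. *Pdgfra* itself was found in 90.2%, 91.2% and 90.1% of members and *Gpr17*, the receptor of committed precursors, in 59.0%, 47.4% and 54.9%.

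**Figure D2:**
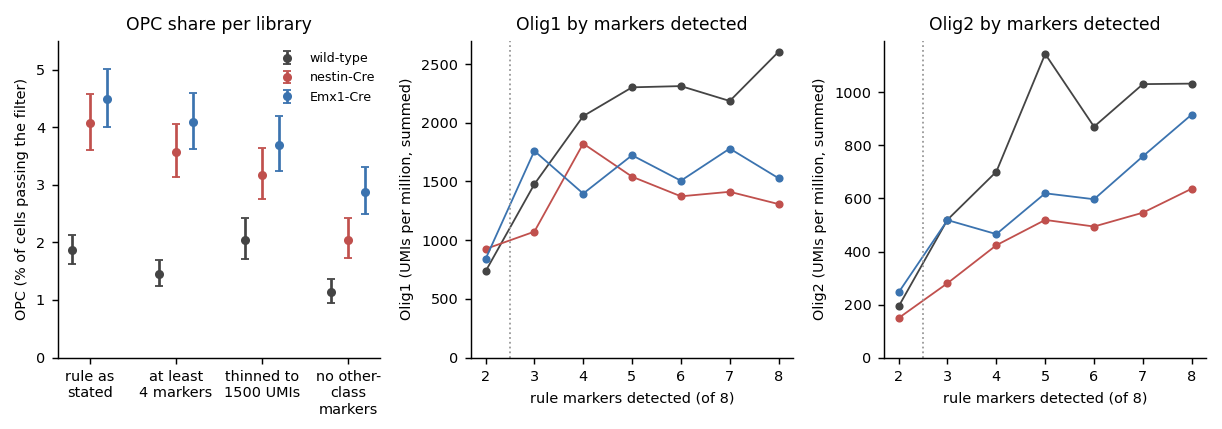
Left, OPC as a percentage of kept cells in each library under the rule and 3 other settings, with exact binomial 95% intervals. Right, *Olig1* and *Olig2* in CPM, drawn without intervals, by the number of the 8 rule markers detected. Cells with 2 markers lie outside the rule, left of the dotted line, and the wild-type share of 1.86% lies below 4.07% and 4.49%.

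Markers of other classes were read in the OPC at levels that differed between libraries. Members with 3 or more markers of another class numbered 79 of 205 in wild-type, 135 of 272 in nestin-Cre and 105 of 293 in Emx1-Cre, and for 73, 130 and 95 of them that class was the neuroblast and granule neuron list. All 11 genes of that list were detected in the OPC of each library, at a summed 18.2, 21.5 and 16.1 UMIs per 10000, against 32.2, 21.3 and 21.6 in microglia and 60.1, 85.2 and 77.6 over all cells outside the OPC. Microglial markers summed to 1.80, 2.67 and 0.673 per 10000 in OPC against 117 to 166 in microglia, with *P2ry12* and *Tmem119* at 0 in Emx1-Cre OPC. Endothelial markers summed to 0.135, 0.482 and 3.54 per 10000 in OPC against 2.98, 0.901 and 2.73 over all other cells, with *Pecam1* and *Kdr* at 0 in wild-type OPC. Astrocyte markers summed to 7.44, 5.22 and 10.7 in OPC against 15.6, 16.1 and 16.9 over all other cells and 6.04, 2.85 and 2.74 in microglia. Haemoglobin summed to 76.7, 0.354 and 2.71 per 10000 in OPC, above the 33.7 over all other cells in wild-type and below the 3.70 and 6.23 in the mutant libraries. The interneuron list stood higher in OPC, at 0.792, 0.964 and 0.792 against 0.129, 0.277 and 0.295 over all other cells. In OPC 3, 6 and 5 of its 10 genes were above 0. *Gad1*, *Npy* and *Erbb4* were read in the OPC of every library, while *Lhx6*, *Dlx2*, *Dlx5* and *Dlx6os1* were at 0 in each. The part of these other-class markers in the results that follow was not tested, apart from the values given without the members holding them.

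OPC were next set against the Egfr Olig2 progenitors (122, 73 and 83 cells), to show which genes the OPC held beyond those of other *Olig2* cells. OPC carried more of the identity, channel and glutamate receptor, and myelin genes and less of the cell cycle, Notch and immediate early genes. In edgeR's quasi-likelihood test on summed counts with the 3 libraries as blocks, 1512 of 8456 genes were higher in OPC (17.9%) and 1485 lower (17.6%) at an adjusted p of 0.05. Both classes were chosen by marker genes in these same cells, so genes that vary together with the chosen markers differ by the choice, and the p-values describe the spread over libraries only. The genes that chose the classes were left out. A gene needed at least 10 UMIs in 3 of the sums, so a gene rare in one class passed only where the other class held it, and its direction in a list's count was then set by the filter.

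Of 23 tested genes of OPC identity outside the rule, 20 were higher in OPC and 2 lower, with a median log2 fold of 1.72 against 0.010 over all genes. *Olig1* stood at 2124 in wild-type, 1417 in nestin-Cre and 1626 in Emx1-Cre OPC and at 1156, 1011 and 970 CPM in the progenitors, a log2 fold of 0.60 ± 0.09 (SE, adjusted p = 1.14e-06). The groups did not overlap. *Sox6*, an SRY-box factor that holds precursors immature, stood at 259, 392 and 328 in OPC against 57.7, 71.3 and 98.8 (log2 fold 1.97 ± 0.15, adjusted p = 4.12e-14). The adhesion gene *Opcml* was higher by 4.29 ± 0.20 on the log2 scale.

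Myelin and committed precursor transcripts were read in OPC. Over the whole lists, with no filter, myelin genes summed to 9.85, 11.7 and 8.46 UMIs per 10000 in OPC against 0.952, 0.984 and 1.28 in the progenitors, and committed precursor genes to 28.8, 32.8 and 29.4 against 12.0, 13.8 and 14.1. The test took in 6 of 16 myelin genes, largely through their OPC counts, and all 6 were higher, while of 15 committed precursor genes 13 were higher and 1 lower. *Mbp*, myelin basic protein, stood at 272, 241 and 168 CPM in OPC and at 0, 2.46 and 11.6 in the progenitors (log2 fold 5.49 ± 0.33, adjusted p = 2.53e-17). A UMI of it was found in 11.2%, 15.4% and 14.7% of OPC, and 120 of the 141 *Mbp* UMIs of wild-type OPC lay in 13 cells with *Gpr17* and no *Pdgfra*. *Bcas1*, a marker of newly forming oligodendrocytes, was higher by 3.97 ± 0.24 on the log2 scale. *Neu4*, a sialidase, had no UMI in the 278 progenitors and was at least 19.3-fold higher in OPC, the bound that a floor of 3 counts over the class allows, and *Cldn11*, the tight junction protein of myelin, was at least 11.9-fold higher on the same floor. *Ugt8a*, which makes the myelin lipid galactosylceramide, had 3 UMIs in the progenitors and a summed log2 ratio of 5.91 (counting interval 4.35 to 8.20).

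Receptor and channel genes set the OPC apart as well. Of 22 tested genes for ion channels and glutamate receptors, 18 were higher in OPC and 3 lower, with a median log2 fold of 2.38. *Gria3*, an AMPA receptor subunit, stood at 226, 241 and 198 CPM in OPC and at 9.36, 12.3 and 3.87 in the progenitors (log2 fold 4.59 ± 0.26, adjusted p = 2.48e-18). *Grin3a*, an NMDA receptor subunit, was higher by 4.37 ± 0.29, the sodium channel *Scn3a* by 4.06 ± 0.33 and *Gria2* by 0.97 ± 0.10 on the log2 scale. Another NMDA receptor subunit, *Grin2b*, was lower by a log2 fold of -1.60 ± 0.44, as were *Grm5* (-0.66) and the potassium channel *Kcnj10* (-0.74), all 3 calls being lost in DESeq2 (adjusted p = 0.137, 0.0698 and 0.0764). Proteoglycan and matrix genes followed with 11 of 14 higher and 2 lower. *Tnr*, the extracellular matrix protein tenascin-R, stood at 305, 453 and 390 in OPC and at 3.12, 2.46 and 5.81 in the progenitors (log2 fold 6.42 ± 0.26, adjusted p = 1.11e-22), while *Ncan*, the proteoglycan neurocan, was lower at 373, 212 and 346 against 680, 330 and 422 (-0.71 ± 0.12).

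Cell cycle genes were lower in OPC in nearly every case. Of 36 S phase genes 32 were lower and 0 higher, and of 51 G2/M genes 47 were lower and 0 higher, with median log2 folds of -1.08 for both. *Top2a*, the mitotic topoisomerase, stood at 191, 244 and 225 CPM in OPC and at 487, 610 and 537 in the progenitors (log2 fold -1.41 ± 0.11). The D cyclins, which drive entry into the cycle, split. *Ccnd2* was lower in OPC at 356, 333 and 358 against 1236, 1097 and 1089 (-1.81 ± 0.10, adjusted p = 1.29e-18), while *Ccnd1* was higher at 516, 501 and 454 against 309, 285 and 335 (0.54 ± 0.11, adjusted p = 0.000109).

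Notch and Id genes were lower for 8 of 15 tested and higher for 1. *Hes5*, a Notch target, stood at 315, 159 and 237 CPM in OPC and at 974, 573 and 583 in the progenitors (log2 fold -1.69 ± 0.11, adjusted p = 6.82e-16). *Lfng*, which tunes Notch receptors, was lower by -3.82 ± 0.35 on the log2 scale, and the 1 gene higher was the ligand *Dll3* (1.07 ± 0.24, with an adjusted p of 0.0880 in DESeq2). Immediate early genes, which include those that cell dissociation induces, were lower for 15 of 17 tested and higher for 0, led by *Fos* at 381, 716 and 673 against 1623, 2543 and 2241 (-1.98 ± 0.09, adjusted p = 1.71e-20). Of 24 cholesterol synthesis genes, 22 did not pass the test, with a median log2 fold of 0.05.

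Of 9 dorsal genes 6 were lower in OPC and 0 higher. *Lhx2* stood at 139, 148 and 163 CPM in OPC and at 395, 325 and 384 in the progenitors (log2 fold -1.39 ± 0.12), and *Emx2* was lower by -1.81 ± 0.18. Both factors are patterning genes of the dorsal forebrain. Of the 10 genes on the ventral list, *Nkx2-1* and *Gsx1* were the ones with enough UMIs for the test, and they reached it through the OPC sums. *Nkx2-1*, the factor of the medial ganglionic eminence, stood at 19.3, 15 and 17.8 in OPC with no UMI in the progenitors, at least 8.9-fold higher, and *Gsx1*, of the ganglionic eminences, at 34.8, 30.0 and 23.8 against 2 UMIs in all (summed log2 ratio 4.48, interval 2.57 to 7.55). The UMIs of *Nkx2-1* came from 10, 11 and 17 OPC, and 0 microglia held one. Summed over the whole list the ventral genes stood at 0.618, 0.525 and 0.495 UMIs per 10000 in OPC and at 0.218, 0.0246 and 0.387 in the progenitors, and in Emx1-Cre the intervals of these sums overlapped (0.368 to 0.653 and 0.237 to 0.598).

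Outside the lists, the genes furthest above the progenitors included *Resp18*, a regulated endocrine secretory protein, and *Cntn1*, an adhesion protein of axons and glia. *Resp18* stood at 147, 134 and 118 CPM in OPC with no UMI in the progenitors, at least 67.8-fold higher. *Cntn1* stood at 593, 615 and 584 against 7.80, 2.46 and 3.87 (log2 fold 6.71 ± 0.23, adjusted p = 4.42e-25) and was read in 62.9%, 79.4% and 80.2% of OPC. Among the other genes with no UMI in the progenitors, *Npas1* and *Prkcq* were both at least 43.9-fold higher in OPC, *Gjc3* at least 31.8-fold, *Stk32a* at least 29.9-fold and *Slitrk3* at least 27.5-fold. *Sulf2*, which edits heparan sulfate, was higher by 5.94 ± 0.26 on the log2 scale. Those lower in OPC by the most were *Tuba1c*, an alpha-tubulin (-3.45 ± 0.31), the neurotrophin *Bdnf* (-3.39 ± 0.33), *Tesc* (-3.27 ± 0.29) and the matrix protein *Fbln2* (-3.24 ± 0.27).

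Against astrocytes (1063, 720 and 953 cells with 3 or more of 10 astrocyte markers), the other main glial class of the tissue, 2110 of 11511 genes were higher in OPC (18.3%) and 2473 lower (21.5%). Of 26 identity genes outside the rule, 17 were higher and 5 lower. *Olig2* stood at 864, 488 and 627 CPM in OPC and at 102, 25.6 and 32.2 in astrocytes (log2 fold 3.58 ± 0.19, adjusted p = 5.60e-10). *Ptprz1* was lower in OPC at 2354, 2730 and 2661 against 3030, 3844 and 3453 (-0.63 ± 0.09), and *Ncan* lower by -2.43 ± 0.11 on the log2 scale. *Nkx2-2*, a homeobox factor of the oligodendrocyte lineage, was higher by 2.95 ± 0.19 and *Cacng4*, an AMPA receptor auxiliary subunit, by 2.33 ± 0.10.

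Committed precursor genes were higher than in astrocytes for 13 of 16 tested, myelin genes for 6 of 8 and channel genes for 17 of 25. Within the committed list *Bcas1* stood at 327, 396 and 262 CPM in OPC against 2.60, 7.4 and 1.58 (log2 fold 6.25 ± 0.19, adjusted p = 1.33e-12). Growth factor receptor and ligand genes mostly went the other way, with 9 of 17 tested lower, 3 higher and a median log2 fold of -0.87. On that list *Erbb4*, a neuregulin receptor, was higher by 5.83 ± 0.31 and the stem cell factor receptor *Kit* by 4.67 ± 0.42. *Gal3st1*, which sulfates myelin lipids (6.36 ± 0.26), *Lims2* (6.30 ± 0.21), *Cntn1* (6.28 ± 0.13), *Ptpre* (6.00 ± 0.16) and *Pllp*, the myelin protein plasmolipin (5.97 ± 0.22), led the genes outside the lists. Further down came *Dscam* (5.92 ± 0.18), *Brinp3* (5.83 ± 0.20), *Pcdh15* (5.82 ± 0.18) and *Resp18* (5.63 ± 0.23). *Gsx1* had no UMI in the 2736 astrocytes and was at least 106-fold higher in OPC.

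Among the lists, Notch and Id genes were lower than in astrocytes for 12 of 18 tested and higher for 2. *Id3*, an inhibitor of helix-loop-helix factors induced by BMP, stood at 243, 185 and 419 CPM in OPC and at 2058, 2552 and 2433 in astrocytes (log2 fold -3.32 ± 0.17), while the ligands *Dll1* (2.22 ± 0.25) and *Dll3* (3.24 ± 0.22) were higher in OPC. Cholesterol synthesis genes were lower for 18 of 24 and higher for 0, with *Hmgcs1* at 290, 386 and 409 against 763, 824 and 815 (-1.37 ± 0.10). Immediate early genes were lower for 18 of 21 and dorsal patterning genes for 8 of 10, with 0 higher in either list. The transcriptional regulator *Prdm16* (-4.78 ± 0.37), *Cybrd1* (-4.56 ± 0.34), the BMP receptor *Bmpr1b* (-4.49 ± 0.38) and the glutamate receptor *Grm3* (-4.31 ± 0.27) were lower in OPC by the most among genes with over 3 OPC UMIs. *Hapln1*, a link protein of the hyaluronan matrix, had a log2 fold of -3.95 ± 0.27. G2/M genes were higher in OPC for 35 of 54 and lower for 3, whereas only 5 of 40 S phase genes were higher and 2 lower.

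**Figure D3:**
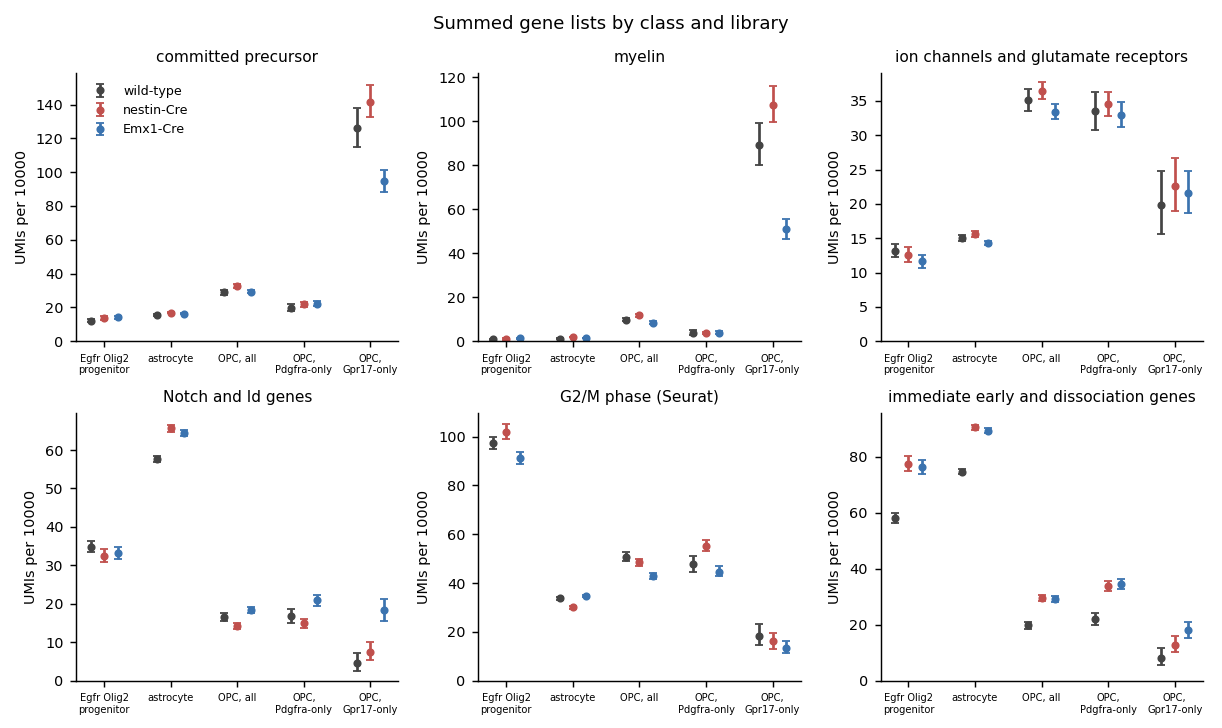
Summed UMIs per 10000 of 6 gene lists in Egfr Olig2 progenitors, astrocytes, all OPC and the *Pdgfra*-only and *Gpr17*-only OPC, 1 point per library with exact Poisson 95% intervals. Myelin genes stood at 89.2, 108 and 50.9 in *Gpr17*-only OPC against 3.85, 3.69 and 3.94 in *Pdgfra*-only OPC, while channel genes were highest in OPC as a whole.

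OPC were not uniform. *Pdgfra* without *Gpr17* was read in 77, 134 and 123 members, *Gpr17* without *Pdgfra* in 13, 15 and 20, both in 108, 114 and 141 and neither in 7, 9 and 9. Members with *Gpr17* alone necessarily carried *Sox10*, since the rule asks for it where *Pdgfra* is absent. They made up 6.34%, 5.51% and 6.83% of the OPC, at median depths of 2483, 3490 and 3860 UMIs against 2175, 2834 and 2781 for those with *Pdgfra* alone. Summed by library, 199 of 3633 genes were higher in *Gpr17*-only cells (5.48%) and 192 lower (5.28%). A gene can go unread in a cell that expresses it, so these sets were chosen by detection and not by absence of the gene. Genes that vary together with *Gpr17* or *Sox10*, or against *Pdgfra*, differ by this choice. The p-values describe the spread over libraries only.

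Between these sets, chosen by markers of the rule itself, *Gpr17*-only OPC carried more of the program of committed precursors and early myelin. Over the whole lists, committed precursor genes summed to 126, 142 and 94.7 UMIs per 10000 against 19.8, 21.8 and 22.0 in *Pdgfra*-only OPC. Myelin genes summed to 89.2, 108 and 50.9 against 3.85, 3.69 and 3.94. Members with both *Gpr17* and *Pdgfra* stood closer to the *Pdgfra*-only values. They held 22.0, 28.3 and 23.4 for committed precursor genes and 3.43, 6.20 and 4.58 for myelin genes. A UMI of *Gpr17* was thus not enough to mark the program. Of 13 committed precursor genes tested 11 were higher and 0 lower, with a median log2 fold of 2.54 against -0.04 over all genes, and the 5 myelin genes with enough UMIs, among 16, were higher. *Mbp* stood at 3166, 2952 and 1448 CPM against 34.0, 35.4 and 19.6 (log2 fold 6.37 ± 0.23, adjusted p = 7.54e-16). Few cells carried its counts. It was read in 6 of 13, 12 of 15 and 10 of 20 *Gpr17*-only cells, and in each library 1 cell held 71 of 120, 53 of 182 and 56 of 131 of the UMIs. *Bcas1* was spread more evenly, in 9, 13 and 17 of them, and stood at 2533, 2790 and 1636 against 142, 195 and 110 (3.97 ± 0.19, adjusted p = 1.30e-13).

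*Myrf*, the transcription factor that switches on myelin genes, stood at 343, 195 and 166 CPM in *Gpr17*-only OPC against 17.0, 8.84 and 7.34 (log2 fold 4.38 ± 0.47, adjusted p = 6.30e-07). *Bmp4*, a secreted signal of committed precursors, was higher by 5.69 ± 0.35, the deacetylase gene *Sirt2* by 3.57 ± 0.19, *Tcf7l2*, a Wnt pathway effector, by 2.68 ± 0.38 and the kinase *Fyn* by 2.54 ± 0.18. The cytoskeletal adaptor *Epb41l2* (3.93 ± 0.27) and *Chn2* (3.70 ± 0.51) were also among the 10 highest. *Enpp6*, an enzyme of newly formed oligodendrocytes, was read in 4, 10 and 10 *Gpr17*-only cells and as 1 UMI in all *Pdgfra*-only cells (summed log2 ratio 8.47, counting interval 5.94 to 13.80). The ligand *Pdgfa* was also higher in the cells without its receptor, at 237, 292 and 243 against 39.6, 50.9 and 36.7 (2.63 ± 0.34, adjusted p = 7.97e-06). Each of these genes was higher in all 3 libraries.

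The same *Gpr17*-only cells held less of the cycle. Summed over all 54 genes with no filter, the G2/M list stood at 18.5, 16.1 and 13.5 UMIs per 10000 (intervals 14.4 to 23.3, 13.1 to 19.6 and 11.2 to 16.1) against 47.7, 55.3 and 44.7 in *Pdgfra*-only cells. Of the 24 genes with enough UMIs, reached mainly through *Pdgfra*-only cells, 18 were lower and 0 higher. *Top2a* had 2 UMIs and *Mki67*, the proliferation marker, 2 UMIs in the 48 cells (summed log2 ratios -4.48, interval -7.53 to -2.61, and -4.16, interval -7.21 to -2.29). *Ccnd1* stood at 132, 32.4 and 210 CPM against 555, 557 and 502 (log2 fold -1.95 ± 0.32, adjusted p = 0.000126) and *Ccnd2* was lower by -1.77 ± 0.28. *Cdkn1c*, which encodes the cycle inhibitor p57, was higher in them, at 158, 195 and 310 against 22.7, 39.8 and 39.2 (2.72 ± 0.36). *Cdca8*, of the mitotic passenger complex, had no UMI in *Gpr17*-only cells and was at least 6.17-fold lower.

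Of 8 Notch and Id genes tested, 3 were lower in *Gpr17*-only OPC and 0 higher. *Hes5* stood at 0, 146 and 44.2 CPM against 306, 181 and 284 (log2 fold -1.82 ± 0.44, adjusted p = 0.00684). It was lower in each library, and its call was lost without Emx1-Cre (adjusted p = 0.0647). Identity genes split, with 7 of 24 higher and 10 lower. *Olig1* was lower at 1372, 941 and 730 against 2186, 1455 and 1752 (-0.83 ± 0.18, adjusted p = 0.00275, but 0.0570 without the wild-type library), while *Olig2*, at 818, 324 and 265 against 815, 453 and 614, did not pass the test (adjusted p = 0.144). *Tnr* (2.08 ± 0.18) was higher, and of 15 channel genes 4 were lower and 0 higher. None of 17 cholesterol synthesis genes passed the test, with a median log2 fold of 0.07.

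**Figure D4:**
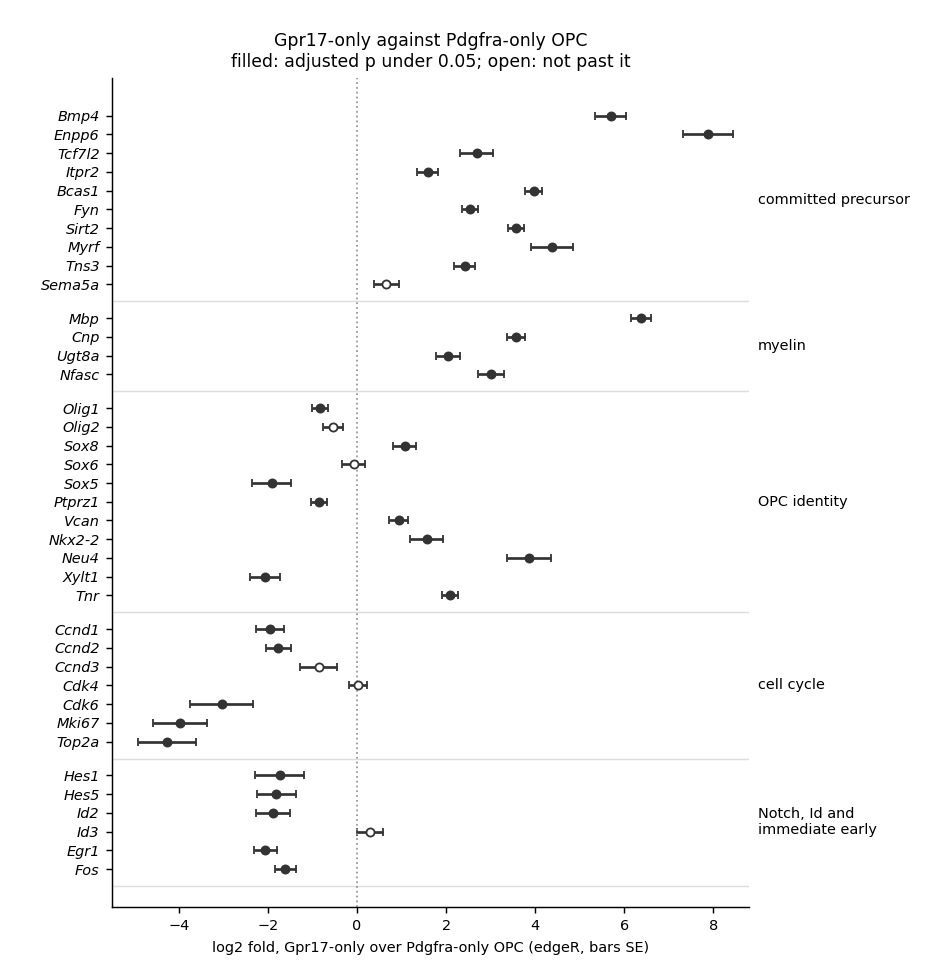
Log2 fold of *Gpr17*-only over *Pdgfra*-only OPC for genes of the lists, with SE from edgeR over 3 libraries. Filled points passed an adjusted p of 0.05, and committed precursor and myelin genes lie to the right while G2/M genes lie to the left.

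Cycling OPC, those with a UMI of *Mki67* or *Top2a* at 1500 UMIs per cell, made up 14.5% in wild-type (exact binomial interval 9.49 to 20.7), 14.9% in nestin-Cre (10.8 to 19.9) and 16.5% in Emx1-Cre (12.4 to 21.4). The intervals overlapped over most of their width. In microglia the shares were 28.0%, 14.9% and 18.8%, so that within a library the OPC value stood at or below that of this class, which also divides in the young brain. Egfr Olig2 progenitors gave 33.3%, 38.9% and 39.0%. Without thinning the OPC shares were 16.6%, 23.5% and 20.8%, in the order of the median depths of the OPC. With the members holding markers of another class left out, the share at 1500 UMIs was lower in each library. It was 10.7% in wild-type (5.45 to 18.3), 8.20% in nestin-Cre (4.00 to 14.6) and 12.7% in Emx1-Cre (8.14 to 18.6), with intervals that overlapped.

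A minority of genes differed between genotypes in OPC by the size rule of 1.5-fold with at least 100 UMIs over both libraries compared. In nestin-Cre 202 of 2977 genes were higher (6.79%) and 133 lower (4.47%), and in Emx1-Cre 108 of 3068 were higher (3.52%) and 61 lower (1.99%). Of 23 identity genes 2 were higher and 4 lower in nestin-Cre and 1 higher and 0 lower in Emx1-Cre, with median log2 ratios of 0.12 and -0.03, beside 0.025 and 0.014 over all genes. Of 13 proteoglycan and matrix genes 1 was higher and 2 lower in nestin-Cre and 1 higher and 0 lower in Emx1-Cre. Of 14 channel genes 1 was higher in nestin-Cre and 0 passed it in Emx1-Cre. Both ratios share the wild-type library, so a deviation of that library enters both. With the members holding markers of another class left out, the counts were 79 higher and 63 lower in nestin-Cre and 50 and 36 in Emx1-Cre, and with cells thinned to 1500 UMIs they were 59, 53, 39 and 22.

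The lineage factors *Olig1* and *Olig2* were lower in the mutant libraries. *Olig2* stood at 864, 488 and 627 CPM, log2 ratios of -0.82 (-1.02 to -0.63) and -0.46 (-0.64 to -0.28), and *Olig1* at 2124, 1417 and 1626, ratios of -0.58 (-0.70 to -0.47) and -0.39 (-0.50 to -0.27). With cells weighted equally the Emx1-Cre ratios were -0.24 for *Olig2* and -0.23 for *Olig1*. The same ratios were further from 0 in cells that should lack the genes, with *Olig2* at -3.05 and -2.88 in microglia and -2.0 and -1.67 in astrocytes, and the part of free RNA in the OPC values was not tested. The rule marker *Gpr17* stood at 533, 278 and 337 (-0.94, interval -1.19 to -0.69, and -0.66, interval -0.90 to -0.43). *Sox6* stood at 259, 392 and 328 and *Vcan*, the proteoglycan versican, at 243, 360 and 330, both with intervals above 0 in each mutant.

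Among matrix genes, *Chst11*, which sulfates chondroitin chains, stood at 85.0, 148 and 134 CPM, log2 ratios of 0.80 (0.30 to 1.32) and 0.65 (0.15 to 1.18), with -0.02 and -0.08 in astrocytes. *Ncan* (-0.81) and *Bcan* (-0.59), 2 secreted proteoglycans of the brain, were past 1.5-fold lower in nestin-Cre and not in Emx1-Cre (-0.11 and -0.22). Without members holding markers of another class the nestin-Cre ratio of *Ncan* was -0.27. Myelin genes showed no common direction, with a summed log2 ratio of 0.25 (0.10 to 0.41) in nestin-Cre and -0.22 (-0.38 to -0.06) in Emx1-Cre. *Mbp* stood at 272, 241 and 168 CPM. Since single cells held much of the *Mbp* counts, Poisson intervals are too narrow for it. Without the deepest 5% of members the myelin ratios were 0.87 and 0.63, and with at least 4 markers asked for they were -0.08 and 0.09.

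Immediate early genes lay on the higher side in both mutant libraries. Of 8 with enough UMIs, 2 were past 1.5-fold higher in nestin-Cre and 4 in Emx1-Cre, 0 were lower, and the summed log2 ratios were 0.57 (0.47 to 0.68) and 0.57 (0.46 to 0.67). When cells were weighted equally in place of by their UMIs, the sums were 0.44 and 0.15. *Fos* stood at 381, 716 and 673 CPM, ratios of 0.91 (0.68 to 1.15) and 0.82 (0.59 to 1.06). The Emx1-Cre ratio was 0.25 without members holding markers of another class, 0.32 with cells weighted equally and 0.50 when thinned, while that of nestin-Cre ran from 0.82 to 1.23 over all settings tried. It was read in 24.7%, 49.4% and 34.9% of OPC at 1500 UMIs per cell. Other classes gave *Fos* ratios of 0.65 and 0.47 in Egfr Olig2 progenitors, 0.32 and 0.28 in astrocytes, 0.28 and 0.49 in neuronal intermediate progenitors and 0.58 and 0.11 in microglia.

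Summed Notch and Id genes went apart in the 2 mutant libraries. Their log2 ratios were -0.21 (-0.34 to -0.09) in nestin-Cre and 0.15 (0.03 to 0.27) in Emx1-Cre. *Hes5* stood at 315, 159 and 237 CPM in OPC, log2 ratios of -0.99 (-1.32 to -0.66) and -0.41 (-0.71 to -0.12), with -1.49 and -1.45 in microglia. *Id1* stood at 42.5, 49.3 and 139 and *Id3* at 243, 185 and 419, so that both were highest in Emx1-Cre. The *Id1* UMIs of Emx1-Cre numbered 140 and came from 51 cells. Astrocyte genes were also high in that library, at 7.44, 5.22 and 10.7 summed UMIs per 10000, and 1 Emx1-Cre cell held 105 of the 239 UMIs of *Gfap* and 1 held 57 of the 206 of *Aqp4*. With the members holding markers of another class left out, the Emx1-Cre ratio of *Id3* turned from 0.78 to -0.31 and that of *Id1* went from 1.71 to 0.99. The nestin-Cre ratio of *Id3* was then 0.066. With at least 4 markers asked for, the ratios in nestin-Cre and Emx1-Cre were 0.19 and 1.18 for *Id3* and 1.09 and 2.61 for *Id1*. The sides on which *Id3* lay thus depended on the setting.

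For the cycle, of 21 G2/M genes 4 were past 1.5-fold lower and 0 higher in nestin-Cre, and of 23 again 4 and 0 in Emx1-Cre, with summed log2 ratios of -0.07 and -0.25. Without the deepest 5% of members the Emx1-Cre sum was 0.014, so its direction rests on those cells. Without members holding markers of another class the nestin-Cre sum was -0.48 and the Emx1-Cre sum -0.018. *Ube2c*, which marks cyclins for destruction in mitosis, stood at 253, 154 and 141 CPM (-0.71, interval -1.07 to -0.36, and -0.85, interval -1.20 to -0.49), with -1.25 and -0.64 in microglia. Its Emx1-Cre ratio was -0.31 when thinned and -0.30 without the deepest members, and its nestin-Cre ratio -2.38 without members holding markers of another class. For S phase genes the summed log2 ratios were 0.37 (0.24 to 0.51) and 0.26 (0.12 to 0.39), or 0.20 and 0.42 without members holding markers of another class. The S phase gene *Mcm6*, a subunit of the replicative helicase, stood at 11.6, 67.5 and 64.4, from 6, 63 and 65 UMIs. Its ratios were 2.54 (1.34 to 4.04) and 2.47 (1.27 to 3.97). Ordered by the smaller ratio, they were the highest among genes past the size in both mutants, with predicted genes left out. *Mcm6* was read in 1.20%, 10.6% and 7.91% of OPC at 1500 UMIs per cell, and its ratios were 0.73 and 1.05 in Egfr Olig2 progenitors, 0.57 and 0.55 in astrocytes, 0.14 and 0.20 in neuronal intermediate progenitors and -0.27 and -0.18 in microglia.

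Of 4714 genes with 100 UMIs over the 3 libraries, 169 were past 1.5-fold and higher in each mutant (3.59%) and 56 lower in each (1.19%). The 10 named first by the smaller ratio were led by *Mcm6* and included *Polr2b*, the second largest subunit of RNA polymerase II, at 23.2, 69.7 and 60.4 CPM (1.59, interval 0.69 to 2.61, and 1.38, interval 0.47 to 2.41). *Tfdp2*, the partner of E2F factors, stood at 25.1, 70.7 and 67.3, the nuclear envelope gene *Syne2* at 23.2, 92.2 and 58.4, the chaperone *Cryab* at 11.6, 43.9 and 52.5 and the dehydrogenase gene *Dhrs7* at 13.5, 36.4 and 60.4. The others were genes of blood vessels. *Col4a1* stood at 13.5, 54.7 and 72.3, *Igfbp7* at 11.6, 36.4 and 94.1, *Cldn5* at 9.66, 24.6 and 223 and *Ctla2a* at 0, 20.4 and 96.1. OPC with 3 or more endothelial or mural markers numbered 0, 1 and 4. With cells holding blood or vessel RNA left out, the log2 ratios of *Col4a1* were 1.40 and 1.25, while those of *Igfbp7* turned to -0.47 and -0.07 and those of *Cldn5* to -1.62 and -3.27 and those of *Ctla2a* to -0.88 and -0.95.

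The genes lower in both mutants by the most were those of haemoglobin, which belong to red cells. *Hbb-bs* stood at 3503, 12.9 and 137 CPM, and 9 wild-type cells with 10 or more haemoglobin UMIs held 3895 of the 3969 of that library. Without them and the cells with vessel RNA the log2 ratios of *Hbb-bs* were -2.79 and -1.27. Next came *Rps19bp1*, a regulator of SIRT1, at 106, 32.1 and 45.6 (-1.73, interval -2.42 to -1.06, and -1.22, interval -1.82 to -0.63), *Sppl2b* (-1.11 and -1.03), *Haghl* (-1.69 and -0.96), *l7Rn6* (-1.24 and -0.94), *Lockd* (-0.97 and -0.93) and *Kctd4* (-0.89 and -0.86). Of cholesterol synthesis genes, *Mvk*, mevalonate kinase, stood at 112, 42.9 and 66.4 (-1.39, interval -2.01 to -0.78, and -0.76, interval -1.29 to -0.22), with -0.74 and -0.94 in microglia. *Cyp51*, further down the same pathway, stood at 155, 237 and 235 (0.62 and 0.60).

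The 2 mutant libraries were also compared with each other. Of 3891 genes 102 were higher in nestin-Cre OPC (2.62%) and 106 higher in Emx1-Cre OPC (2.72%). *Frmd4a*, a scaffold of cell polarity, stood at 25.1 in wild-type, 103 in nestin-Cre and 47.5 in Emx1-Cre, a log2 ratio of nestin-Cre over Emx1-Cre of 1.11 (0.60 to 1.65). *Ppp1r10*, a phosphatase subunit, stood at 46.4, 143 and 72.3 (0.98, interval 0.56 to 1.41). The histone transcript *Hist1h2ap* (1.03) and *Mex3c* (0.95) were also among the 5 highest. At the other end lay *Aqp4* (-4.57) and *Gfap* (-3.62), which rest in part on the single cells named above, with the blood and vessel genes *Hbb-bs*, *Cldn5* and *Ctla2a*. The X-inactivation RNA *Xist* stood at 1550, 1287 and 818 and the Y-linked *Ddx3y* at 15.5, 41.8 and 37.6, so the levels of sex-linked RNA also differed between the pools of littermates.

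**Figure D5:**
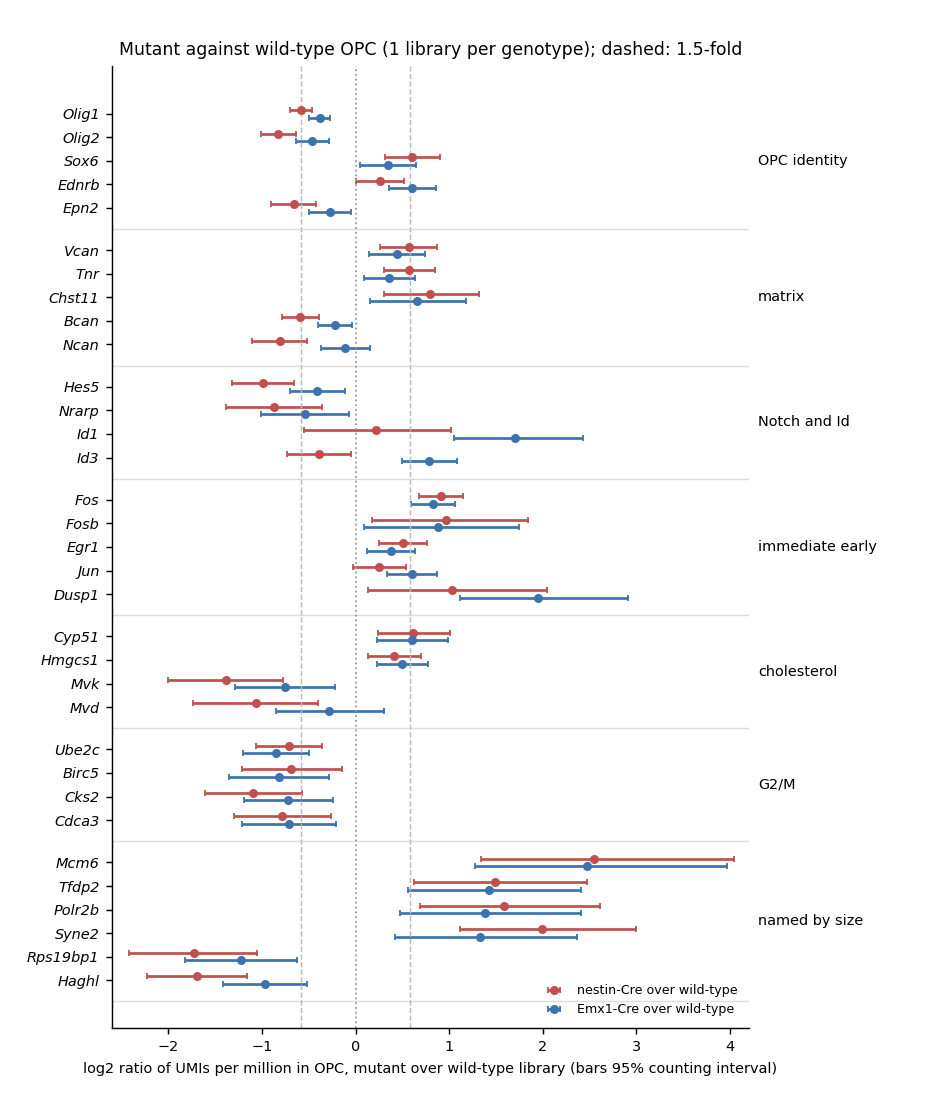
Log2 ratio of each mutant library to wild-type in OPC for genes of the lists, with counting intervals and dashed lines at 1.5-fold. *Sox6*, *Chst11* and *Fos* lie right of 0 and *Olig1*, *Olig2*, *Hes5* and *Ube2c* left of it in both mutants, while *Id3* lies on opposite sides.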

How the data were processed

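Droplet single-cell libraries of the P7 dentate gyrus were analysed, 1 per genotype (wild-type, nestin-Cre and Emx1-Cre), each from 3 to 4 gyri. The deposited matrices hold UMI counts per gene and barcode, made by the authors with Cell Ranger (4.0.0 in the file headers, another version in the methods) against mm10 per the submitters' processing notes. The labels name both 3′ V2 and v3.1 chemistry. A cell was kept where over 500 genes were detected and the mitochondrial share of its UMIs was under 15%, the cuts that the study's methods name. The study reports more cells after quality control than were kept here in each library, above all in wild-type. The cells are thus not the same set as the study's, and the reason was not tested. Neurosphere, ATAC-seq and CUT&Tag data were not analysed here.

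Members and gene lists were chosen with earlier results of these data known. Counts were summed per library and class. Classes within libraries were compared with edgeR 4.0.16 in R 4.3.3 (quasi-likelihood test, TMM factors, library as block, at least 10 UMIs in 3 of the sums, Benjamini-Hochberg adjustment, threshold 0.05), with DESeq2 1.42.0 as an alternative. Genotypes were compared by size alone, at least 1.5-fold with at least 100 UMIs over both libraries. CPM (counts per 1000000 UMIs) carry exact Poisson intervals, ratios and shares exact binomial ones, at 95% and for counting error only. Depth was 28918491, 26689878 and 28537738 UMIs per library and 517520, 933204 and 1009784 in OPC. Where a class had no UMI, folds were bounded with a floor of 3 counts over the class. Genes named were the 10 with the largest difference in each direction (5 for nestin-Cre over Emx1-Cre and for lower genes in class comparisons) plus members of the lists. Predicted genes (Gm followed by digits, or Rik) were counted but not ranked for naming. In class comparisons the ranked genes also needed an average log2 CPM of at least 5. No doublet caller was run. Members with 3 or more markers of another class, or the deepest 5%, were left out as alternatives. Python 3.11.15, numpy 2.4.6, scipy 1.17.1, pandas 2.3.3 and matplotlib 3.10.9 were used, and each test was tried on simulated data. Columns of other series left unused numbered 0, and 3 list genes (*9630013A20Rik*, *Scn2a* and *Rn7sk*) were not found by these names in the table. Some genes of the lists are not reported here by name.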

Additional observations from a re-analysis of the deposited data

Results flagged for a closer look

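Barcodes that failed the quality filter and so entered no comparison still included some that met the OPC marker rule. There were 2 of 1879 in wild-type (0.106%), 2 of 492 in nestin-Cre (0.407%) and 6 of 290 in Emx1-Cre (2.07%). Their median depths were 656, 558.5 and 607.5 UMIs, below the OPC medians of 2429, 3097 and 2807. Whether they were damaged OPC was not tested.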

How the results depend on the processing

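No paired analysis was possible because each genotype had 1 library and the replicate numbers in the labels belong to samples not used here. Class comparisons kept their direction for every gene named in the text in edgeR and DESeq2. DESeq2 called fewer genes, 681 higher and 623 lower in OPC against Egfr Olig2 progenitors, 1105 and 1411 against astrocytes, and 103 and 45 in *Gpr17*-only cells, and the calls of *Hes5* (adjusted p = 0.0541) and *Top2a* (0.133) in the last comparison were lost. Thinning to 1500 UMIs, which leaves fewer UMIs, gave 697 and 681 against the progenitors and 72 and 56 in *Gpr17*-only cells. Leaving out each library in turn gave 1255 to 1351 higher and 1141 to 1268 lower against the progenitors, 1706 to 2065 and 2021 to 2174 against astrocytes, and 177 to 189 and 134 to 153 in *Gpr17*-only cells.

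Genotype counts followed the settings, given as higher and lower in nestin-Cre, in Emx1-Cre and in both. They were 59 and 53, 39 and 22, and 64 and 34 when thinned; 79 and 63, 50 and 36, and 65 and 33 without members holding markers of another class; 576 and 351, 376 and 218, and 479 and 186 at 50 UMIs; 23 and 12, 18 and 6, and 28 and 6 at 2-fold; and 23 and 29, 16 and 10, and 12 and 10 at 300 UMIs, a setting chosen after seeing the data, as was leaving out cells with blood or vessel RNA. OPC shares with at least 4 markers were 1.45% in wild-type and 3.58% in nestin-Cre. Without members holding markers of another class they were 1.15%, 2.05% and 2.88%, with median depths of 2722 and 2611.5 UMIs in the mutants. Cycling shares were then 10.7% in wild-type, 8.20% in nestin-Cre and 12.7% in Emx1-Cre. Thinned before the rule, the OPC shares were 3.17% and 3.69% in the mutants.

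Ratios to wild-type that reversed were mostly those of vessel and astrocyte genes, nestin-Cre first where a pair is given. When thinned, *Gfap* was 0.23, *Cldn5* -2.20 and *Ctla2a* -0.62 in nestin-Cre. With 4 markers, *Igfbp7* was -0.42, *Cldn5* -0.91 and *Ctla2a* -1.49 in nestin-Cre and *Mbp* 0.012 in Emx1-Cre. Without members holding markers of another class, *Igfbp7* was -0.77 and -0.75, *Cldn5* -0.35 and -0.75 and *Ctla2a* -0.94 and -2.33, and in Emx1-Cre *Id3* was -0.31, *Gfap* -1.75 and *Aqp4* -1.33. Without the deepest members, *Igfbp7* was -0.43 and *Cldn5* -1.58 in nestin-Cre, *Ctla2a* -0.84 and -0.17, and *Mbp* 1.13 in Emx1-Cre. Without cells with blood or vessel RNA, *Igfbp7* was -0.47 and -0.072, *Cldn5* -1.62 and -3.27 and *Ctla2a* -0.88 and -0.95. The cause was not tested. Of the other values for genes between genotypes, 555 stayed within the counting interval and 62 moved outside it. Among them were *Rps19bp1*, -2.43 in nestin-Cre when thinned, and *Mex3c*, 2.35 and 1.95 without members holding markers of another class. Depth limits *Larp7* in OPC, read from 12 to 21 UMIs per library.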
